A study of Homo sapiens with 6 samples.

Results

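The 4 members of the STEAP family, STEAP1, STEAP2, STEAP3 and STEAP4, were followed across 6 RNA sequencing libraries of human prostate cancer cells. They were taken by gene symbol from a table of 21512 genes, and all 4 had a row. The libraries came from 2 cell lines, BicR and LNCaP, each given 10 nM dihydrotestosterone (DHT, an androgen), 1 µM bicalutamide (an antiandrogen) or ethanol vehicle for 24 h, with 1 library for each line and treatment. Before treatment both lines spent 3 days in phenol red-free medium with 2.5% charcoal-stripped serum, which is poor in steroid hormones, and all 6 libraries share this step. LNCaP is an established line from a prostate cancer metastasis that responds to androgen. BicR is labelled only as a prostate cancer line; the labels do not say how it was derived or whether it is 1 clone.

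STEAP proteins (six-transmembrane epithelial antigens of the prostate) are haem-containing membrane proteins of the cell surface, Golgi and endosomes. STEAP2, STEAP3 and STEAP4 carry an NADPH-binding oxidoreductase domain in the cytosol and pass electrons across the membrane to reduce ferric iron and cupric copper. STEAP1 lacks that domain and is best known as a surface antigen of prostate cancer cells. STEAP3 is the endosomal ferrireductase of developing red cells, where it acts in the transferrin cycle, and STEAP4 is also known as an inflammation-induced gene of fat tissue, work done in mice.

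In these libraries the family divided into 1 gene that was near 0 without DHT and 3 whose levels each varied by less than 2-fold. STEAP4 had 5668 counts in BicR and 358 in LNCaP under DHT, and 5 to 11 counts in the libraries without DHT. STEAP1, STEAP2 and STEAP3 were present at 2015 counts or more in every library, and their highest level was 1.73, 1.65 and 1.37 times their lowest. Levels of 1 gene between libraries are given as CPM, counts scaled to library size by the trimmed mean of M-values (TMM). Levels of different genes are compared as RPKM, the authors' reads per kilobase scaled to library size.

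The promoters are shown because they set the induced gene beside its relatives, whose levels each varied by less than 2-fold. Each runs from 250 bases before to 50 bases after the RefSeq start, build GRCh38.p14, 5′ to 3′ on the gene's own strand, with matches to GGGCGG (a GC box, searched on both strands) in capitals. All 4 members had an entry. STEAP2 had 2 entries, of which the one further upstream is shown.
STEAP4 promoter (chr7:88306845-88307144, minus strand): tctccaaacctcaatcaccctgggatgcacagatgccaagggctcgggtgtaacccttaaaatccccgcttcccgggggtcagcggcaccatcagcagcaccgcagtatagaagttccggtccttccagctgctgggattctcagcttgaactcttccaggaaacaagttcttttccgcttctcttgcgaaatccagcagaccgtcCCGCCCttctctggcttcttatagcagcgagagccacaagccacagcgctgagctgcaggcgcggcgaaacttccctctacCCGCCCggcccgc
STEAP1 promoter (chr7:90154219-90154518, plus strand): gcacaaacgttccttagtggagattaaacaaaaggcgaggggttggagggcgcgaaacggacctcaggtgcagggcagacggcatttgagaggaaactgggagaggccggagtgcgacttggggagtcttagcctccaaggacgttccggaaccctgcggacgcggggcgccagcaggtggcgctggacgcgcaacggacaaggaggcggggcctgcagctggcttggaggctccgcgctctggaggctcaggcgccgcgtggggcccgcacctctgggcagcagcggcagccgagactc
STEAP2 promoter (chr7:90211490-90211789, plus strand): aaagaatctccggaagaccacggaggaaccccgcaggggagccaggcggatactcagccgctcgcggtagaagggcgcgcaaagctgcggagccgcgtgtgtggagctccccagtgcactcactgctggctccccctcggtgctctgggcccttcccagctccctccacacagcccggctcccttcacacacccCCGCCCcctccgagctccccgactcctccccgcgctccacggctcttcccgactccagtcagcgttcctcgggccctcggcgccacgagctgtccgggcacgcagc
STEAP3 promoter (chr2:119223584-119223883, plus strand): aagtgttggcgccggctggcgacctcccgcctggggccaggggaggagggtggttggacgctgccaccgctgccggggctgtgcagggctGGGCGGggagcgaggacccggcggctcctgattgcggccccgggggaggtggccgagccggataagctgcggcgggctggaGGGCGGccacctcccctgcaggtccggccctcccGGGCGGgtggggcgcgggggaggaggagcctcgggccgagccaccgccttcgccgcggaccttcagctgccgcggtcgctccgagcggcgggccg

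STEAP4 had 58.7% G and C in this window, equal to the median of 58.7% over 35116 RefSeq promoters, while STEAP1 had 66.7%, STEAP2 70.3% and STEAP3 78.7%. The STEAP4 window had an observed over expected CpG ratio of 0.728, against 0.844, 0.794 and 0.796 in STEAP1, STEAP2 and STEAP3 and a median of 0.579 over all promoters. GGGCGG was found 2 times in STEAP4, 1 time in STEAP2, 3 times in STEAP3 and 0 times in STEAP1, and 45.0% of all promoters held it. AGAACA, a core of androgen response elements, was searched on both strands and found in none of the windows shown, nor was TATAAA or CCAAT; 14.8%, 11.5% and 34.6% of all promoters held these letters. The full palindrome, in which AGAACA and its reverse complement stand 3 free bases apart, overlaps any AGAACA match and was in none of the 4 windows and in 1 of all promoters. The other STEAP2 entry, chr7:90213570-90213869 on the plus strand, differed from these windows, with 33.7% G and C, a CpG ratio of 0.238, 1 TATAAA and 2 CCAAT. A window without these letters says nothing of sites elsewhere.

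STEAP1, STEAP2 and STEAP4 lie on chromosome 7, where STEAP1 and STEAP2 are neighbours and ZNF804B is the coding gene next to both STEAP4 and STEAP1. STEAP3 lies on chromosome 2. The STEAP1 window matched that of its near copy STEAP1B at 290 of 300 bases. Reads of the 2 genes may have been divided between them, but most of the window lies before the start. Transcript sequences were not compared, so this was not tested. In RefSeq the antisense RNA gene STEAP2-AS1 overlaps STEAP1 and STEAP3-AS1 overlaps STEAP3, and since the use of strand in counting is not stated, reads from either strand cannot be told apart. The unnamed RefSeq loci LOC107986819, LOC105373581 and LOC124901692 overlap STEAP2, STEAP3 and STEAP4, in that order.

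Total counts ran from 42162723 to 55917016 per library. All 10 luminal prostate markers, KLK3 among them, stood at 1 CPM or more in every library and summed to 3942 to 11601 CPM. Of 5 basal markers only ITGB4 reached 1 CPM in every library, with KRT5 and KRT15 at 0.0737 CPM or less. KRT14 reached 0.405 CPM in LNCaP DHT and 0.501 CPM in BicR DHT, and TP63 reached 0.978 CPM in LNCaP bicalutamide. Of 11 immune, stromal and endothelial markers 3 reached 1 CPM in every library. These were CD68 (11.3 to 28.5 CPM), COL1A1 (24.8 to 45.9 CPM) and VWF (3.00 to 10.8 CPM). COL3A1 reached 1.30 to 2.04 CPM in LNCaP only. The list summed to 46.1 to 82.2 CPM, and PTPRC, CDH5 and COL1A2 were at 0 throughout. The LNCaP ethanol library stood apart, with the chaperone gene HSPA5 taking 0.790% of its counts against 0.131% to 0.164% in the other 5, so the contrast with bicalutamide is given beside the one with ethanol. Across genes, which are not independent replicates, the BicR bicalutamide and ethanol libraries were the most alike of all pairs (Pearson r = 0.998), while LNCaP bicalutamide was nearer to these (0.986 with each) than to LNCaP DHT or LNCaP ethanol (0.981 with each). With 1 library a group, ratios carry exact 95% intervals that cover counting error only, there is no replicate check within a line, and the labels do not say whether cultures were pooled. A lower count in such bulk RNA may come from fewer cells with the transcript or from less of it per cell.

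STEAP4, the inducible member, had 5668 counts in BicR with DHT, 5 with bicalutamide and 8 with ethanol. In LNCaP it had 358 counts with DHT, 5 with bicalutamide and 11 with ethanol. Both DHT libraries lay above all 4 others, and BicR DHT lay far above LNCaP DHT. In CPM, BicR stood at 135 (95% counting interval 132 to 139) with DHT, 0.102 (0.0330 to 0.237) with bicalutamide and 0.154 (0.0663 to 0.303) with ethanol. LNCaP stood at 6.60 CPM (5.93 to 7.32) with DHT, 0.0958 (0.0311 to 0.224) with bicalutamide and 0.220 (0.110 to 0.394) with ethanol. The intervals of the 4 libraries without DHT overlapped one another, so no order among them could be read at this depth. Among the RPKM values of the 13885 genes tested, STEAP4 was at percentile 80.5 in BicR DHT, 18.2 in LNCaP DHT and 0.360 or lower in the libraries without DHT.

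**Figure D1:**
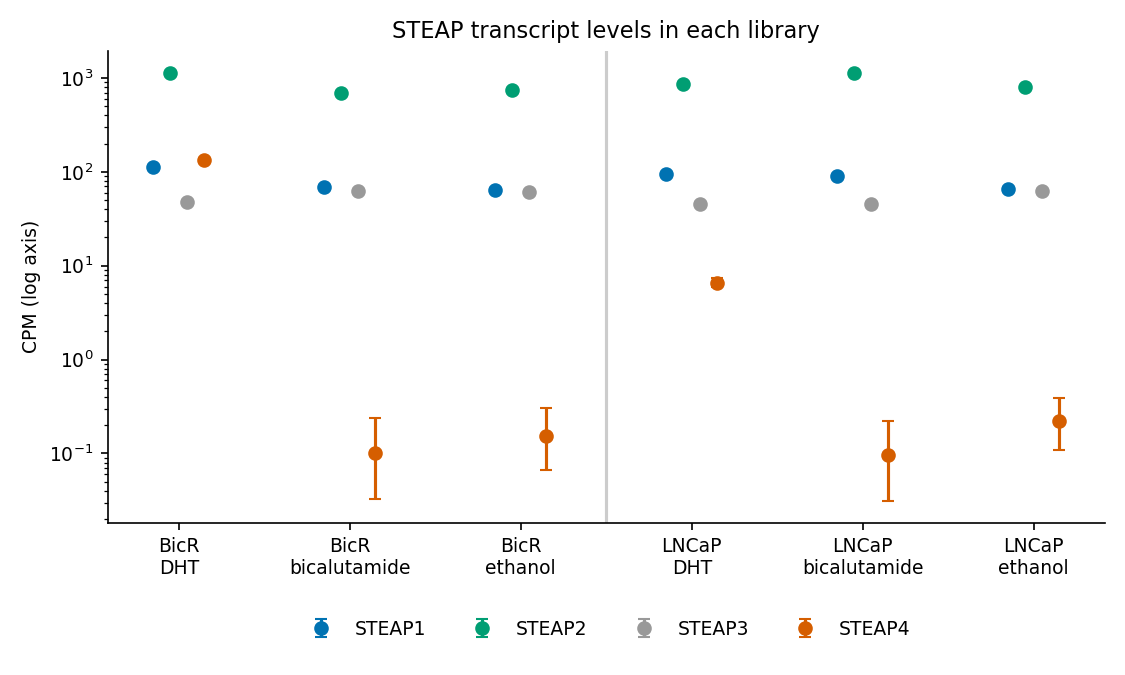
CPM (log axis) of STEAP1, STEAP2, STEAP3 and STEAP4 in the 6 libraries, BicR left and LNCaP right, 1 point per gene and library; bars are exact 95% counting intervals, mostly smaller than the points. STEAP4 stands at 135 CPM in BicR DHT and 6.60 CPM in LNCaP DHT and at 0.0958 to 0.220 CPM in the other 4 libraries, while the other members each vary by less than 2-fold.

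As ratios, STEAP4 with DHT was 1328-fold its bicalutamide level in BicR (569 to 4093) and 68.8-fold in LNCaP (29.2 to 213). Against ethanol it was 880-fold in BicR (446 to 2039) and 30.0-fold in LNCaP (16.5 to 60.6). By the log2(CPM + 1) difference, in which the added 1 shrinks changes at low levels, STEAP4 ranked 1 of 13885 genes in BicR against either library, and 3 in LNCaP against either library. It was the only member with a difference of 1 or more on that scale, which is the 2-fold limit for single libraries here; on log2(RPKM + 1) its LNCaP difference against ethanol was 0.93, just under 2-fold. The share of all tested genes at least 2-fold higher with DHT was 1.43% in BicR and 1.58% in LNCaP against bicalutamide, and 1.45% and 1.4% against ethanol. The share at least 2-fold lower, where no member stood, was 1.04% in BicR and 0.893% in LNCaP against bicalutamide, and 0.922% and 1.19% against ethanol.

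Over both lines the response was tested with an additive model of line and treatment (edgeR's quasi-likelihood test, Benjamini-Hochberg adjustment over all genes). Its error combines how far the lines disagree for a gene with the spread of other genes. The gene's own part had 2 residual degrees of freedom, beside a median of 6.80 prior degrees of freedom drawn from all genes. STEAP4 rose with DHT by 8.91 on the log2 scale against bicalutamide (SE 1.03, adjusted p = 0.0164) and by 7.88 against ethanol (SE 0.97, adjusted p = 0.0250), and it was higher in 2 of 2 lines. Both comparisons share the DHT libraries. The fitted 7.88 lies between the log2 ratios of the lines against ethanol, 9.78 in BicR and 4.91 in LNCaP. Of all genes tested, 0.166% were higher and 0% lower with DHT against bicalutamide, and 0.158% higher and 0.0072% lower against ethanol. STEAP4 passed the filter of a mean of 20 counts only through its DHT libraries, since its mean over the other 4 was 7.25; with no filter its adjusted p was 1.37e-05 against bicalutamide and 3.13e-05 against ethanol.

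Without either bicalutamide library the call against ethanol was lost, at 7.96 (adjusted p = 0.446) without that of LNCaP and 7.97 (adjusted p = 0.431) without that of BicR. No gene passed in these fits, while 323 and 325 were higher at an unadjusted p under 0.05. The estimate was 4.99 without BicR DHT, 5.13 without BicR ethanol, 9.64 without LNCaP DHT and 9.56 without LNCaP ethanol. Against bicalutamide it was 5.90 without BicR DHT, 10.54 without LNCaP DHT, 9.05 without the ethanol library of either line, 6.51 without BicR bicalutamide (adjusted p = 0.426) and 10.02 without LNCaP bicalutamide (adjusted p = 0.828). DESeq2's Wald test gave 7.86 against ethanol (adjusted p = 6.39e-05), and limma on log2(RPKM + 1) gave 2.64 (adjusted p = 0.487).

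The DHT response of STEAP4 was larger in BicR. Its ratio against ethanol was 29.4 times that of LNCaP (95% counting interval 11.7 to 73.4), and its ratio against bicalutamide 19.3 times (5.56 to 67.0). Whether the lines differ beyond the spread of cultures was not tested, because no line and treatment was repeated. For the androgen targets FKBP5, KLK2, TMPRSS2 and KLK3 the same quotient against ethanol was 4.11, 1.94, 1.82 and 1.03. Against bicalutamide it was 5.65 for FKBP5, 1.40 for KLK2, 2.04 for TMPRSS2 and 0.769 for KLK3.

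Between the lines STEAP4 differed with DHT but not detectably without it. The DHT level in BicR was 20.5 times that in LNCaP (18.4 to 22.9), the largest such difference of the 13885 genes on the log2(CPM + 1) scale, where 2.81% of genes stood at least 2-fold higher in BicR and 4.7% lower. With bicalutamide BicR was at 1.06 times LNCaP (0.244 to 4.61) and with ethanol at 0.698 times (0.244 to 1.91), where the shares of genes past 2-fold were 0.684% higher and 1.27% lower with bicalutamide and 2.62% higher and 3.88% lower with ethanol. Over the 3 treatments edgeR's estimate of BicR against LNCaP was 3.20 for STEAP4 (SE 0.88, adjusted p = 0.0737), which did not pass; 1.58% of genes passed as higher and 2.84% as lower. DESeq2's estimate was 1.18 (adjusted p = 0.608). Without BicR DHT or LNCaP DHT the estimate of edgeR was -0.28 or -0.29. Without BicR ethanol or LNCaP ethanol it was 3.92 in each. These fits had a single residual degree of freedom.

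STEAP2, a metalloreductase of the prostate epithelium, was the most abundant member by count and per length. It had 47876 counts in BicR DHT, 33940 in BicR bicalutamide and 38629 in BicR ethanol, or 1142, 691 and 742 CPM. LNCaP had 46321, 59234 and 39764 counts, or 853, 1135 and 796 CPM, with DHT, bicalutamide and ethanol. The highest libraries were BicR DHT and LNCaP bicalutamide, and the DHT libraries did not stand apart from the rest. In BicR the DHT level was 1.65 times that with bicalutamide (1.63 to 1.68) and 1.54 times that with ethanol (1.52 to 1.56). In LNCaP it was 0.752 times the bicalutamide level (0.742 to 0.761) and 1.07 times the ethanol level (1.06 to 1.09). Bicalutamide stood at 0.931 times ethanol in BicR (0.918 to 0.945) and at 1.43 times in LNCaP (1.41 to 1.45), so both contrasts with bicalutamide ran in opposite directions in the 2 lines. Over both lines edgeR estimated 0.15 for DHT against bicalutamide (SE 0.30, adjusted p = 0.914) and 0.39 against ethanol (SE 0.29, adjusted p = 1.00), and neither passed.

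STEAP1, the surface antigen, had 4693, 3405 and 3359 counts in BicR with DHT, bicalutamide and ethanol, or 112, 69.3 and 64.5 CPM. In LNCaP it had 5109, 4693 and 3310 counts, or 94.1, 90.0 and 66.2 CPM. In CPM both DHT libraries were above all others, with LNCaP bicalutamide just below them; in RPKM the LNCaP order was turned, at 46.9 with DHT and 47.3 with bicalutamide. With DHT it stood at 1.73 times ethanol in BicR (1.66 to 1.81) and 1.42 times in LNCaP (1.36 to 1.49). Against bicalutamide the ratio was 1.62 in BicR (1.54 to 1.69) and 1.05 in LNCaP (1.01 to 1.09), where the log2 difference of 0.06 became -0.01 with total counts or RPKM. Over both lines STEAP1 stood at 0.66 against ethanol (SE 0.21); its adjusted p of 0.635 in edgeR missed the threshold, though its unadjusted p was 0.0117. Against bicalutamide it stood at 0.38 (SE 0.21, adjusted p = 0.731).

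STEAP3, the endosomal ferrireductase, had 2015, 3038 and 3143 counts in BicR with DHT, bicalutamide and ethanol, or 48.1, 61.8 and 60.4 CPM. In LNCaP it had 2485, 2399 and 3142 counts, or 45.8, 46.0 and 62.9 CPM. It was the member with lower values under DHT than under ethanol in both lines, at 0.796 times in BicR (0.752 to 0.842) and 0.728 times in LNCaP (0.691 to 0.768). Against bicalutamide the DHT level was 0.777 times in BicR (0.734 to 0.822) and 0.995 times in LNCaP (0.941 to 1.05), where LNCaP did not differ beyond counting error. The fitted change over both lines was -0.40 against ethanol (SE 0.19, adjusted p = 0.954, edgeR) and -0.19 against bicalutamide (SE 0.19, adjusted p = 0.830).

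**Figure D2:**
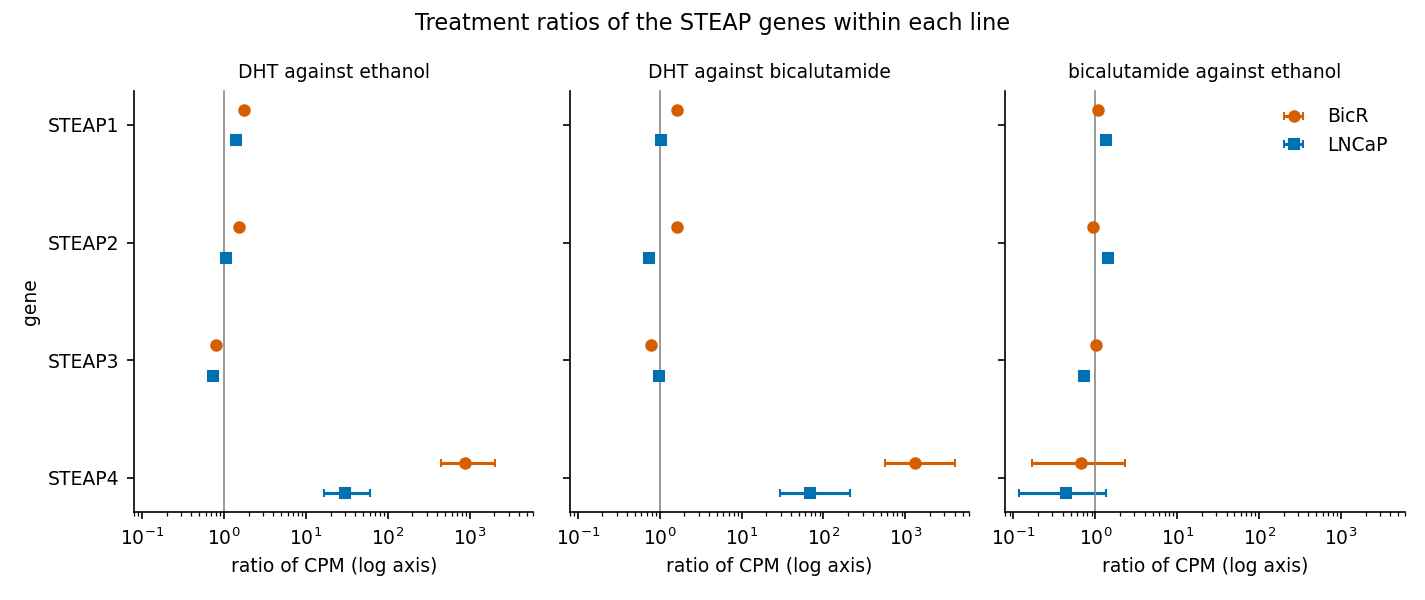
Ratios of CPM (log axis) between treatments within each line for the 4 genes, BicR circles above LNCaP squares, with exact 95% counting intervals that are mostly smaller than the symbols; the grey line marks 1. STEAP4 lies at 30.0 to 1328 in the contrasts with DHT, and the other members lie between 0.728 and 1.73 in every panel.

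With bicalutamide against ethanol no member passed the 2-fold limit on the log2(CPM + 1) scale in either line, where 1.08% of tested genes were higher and 1.52% lower in LNCaP and 0% in either direction in BicR. STEAP4 stood at 0.662 times ethanol in BicR (0.170 to 2.30) and 0.436 times in LNCaP (0.119 to 1.36), both intervals including 1; the LNCaP ratio of 5 against 11 counts is itself past 2-fold lower. STEAP1 stood at 1.07 times in BicR (1.02 to 1.13) and 1.36 times in LNCaP (1.30 to 1.42). STEAP3 stood at 1.02 times in BicR (0.974 to 1.08) and 0.732 times in LNCaP (0.693 to 0.772). Over both lines edgeR passed 0 of 4 members and 0% of all genes in either direction, with 0 members at an unadjusted p under 0.05, and DESeq2 passed 0. The estimates were 0.28 (SE 0.21) for STEAP1, 0.23 (SE 0.29) for STEAP2, -0.20 (SE 0.19) for STEAP3 and -1.03 (SE 1.46) for STEAP4. That of STEAP4 was -3.92 (adjusted p = 0.000300) without BicR ethanol and 1.46 without BicR bicalutamide, so no direction can be read from it.

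Between the lines the 3 other members stood nearest to each other with ethanol and furthest apart with bicalutamide. With ethanol BicR stood at 0.974 times LNCaP for STEAP1 (0.928 to 1.02), 0.933 times for STEAP2 (0.920 to 0.946) and 0.960 times for STEAP3 (0.914 to 1.01). With DHT the ratios were 1.19 for STEAP1 (1.14 to 1.24), 1.34 for STEAP2 (1.32 to 1.36) and 1.05 for STEAP3 (0.989 to 1.11). With bicalutamide they were 0.770 for STEAP1 (0.737 to 0.805), 0.608 for STEAP2 (0.600 to 0.617) and 1.34 for STEAP3 (1.27 to 1.42). Over the treatments edgeR estimated -0.05 (SE 0.17), -0.13 (SE 0.24) and 0.15 (SE 0.16) for STEAP1, STEAP2 and STEAP3, with adjusted p = 0.866, 0.763 and 0.593.

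Setting the inducible gene against the constant ones, the DHT difference of STEAP4 on the log2(CPM + 1) scale exceeded the median of the other 3 by 6.26 in BicR and 2.54 in LNCaP against ethanol, and by 6.27 and 2.80 against bicalutamide. For bicalutamide against ethanol the same quantity was -0.10 in BicR and -0.59 in LNCaP. No test was run on these differences. Over the 6 libraries the SD of log2(CPM + 1) was 2.81 for STEAP4, 0.32 for STEAP1, 0.31 for STEAP2 and 0.22 for STEAP3, beside a median SD of 0.23 over all tested genes. STEAP1 and STEAP2 thus varied more than the median gene, at percentiles 72.8 and 70.6, and STEAP3 stood at percentile 45.3. They are constant only beside STEAP4, which had the largest SD of all 13885 genes. By the log2(CPM + 1) difference of DHT and ethanol, STEAP1 stood at percentile 97.6 of the tested genes in BicR and 92.9 in LNCaP. STEAP2 stood at percentiles 96.1 and 61.9, and STEAP3 at 12.6 and 8.95. Against bicalutamide the percentiles in BicR and LNCaP were 97.1 and 57.1 for STEAP1, 97.5 and 15.1 for STEAP2, and 10.9 and 50.1 for STEAP3.

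Per gene length STEAP2 led the family in every library and STEAP4 took a visible share only with DHT. The gene models behind RPKM were 5.44 times as long for STEAP2, 3.32 times for STEAP3 and 3.39 times for STEAP4 as for STEAP1. The summed RPKM of the family was 187 in BicR DHT, 114 in BicR bicalutamide and 117 in BicR ethanol, and 133, 164 and 114 in LNCaP with DHT, bicalutamide and ethanol. STEAP2 made up 55.8% to 66.8% of the sum and STEAP1 28.6% to 35.3%. STEAP3 made up 3.85% in BicR DHT, 5.18% in LNCaP DHT and 4.44% in LNCaP bicalutamide, and 8.19% to 8.67% in the other 3 libraries. STEAP4 made up 10.6% in BicR DHT and 0.729% in LNCaP DHT, and 0.00904% to 0.0280% in the other 4 libraries. In BicR DHT its RPKM of 19.8 was 2.75 times that of STEAP3 and 0.356 times that of STEAP1. In BicR ethanol STEAP3 RPKM was 402 times that of STEAP4, and in LNCaP DHT 7.10 times.

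**Figure D3:**
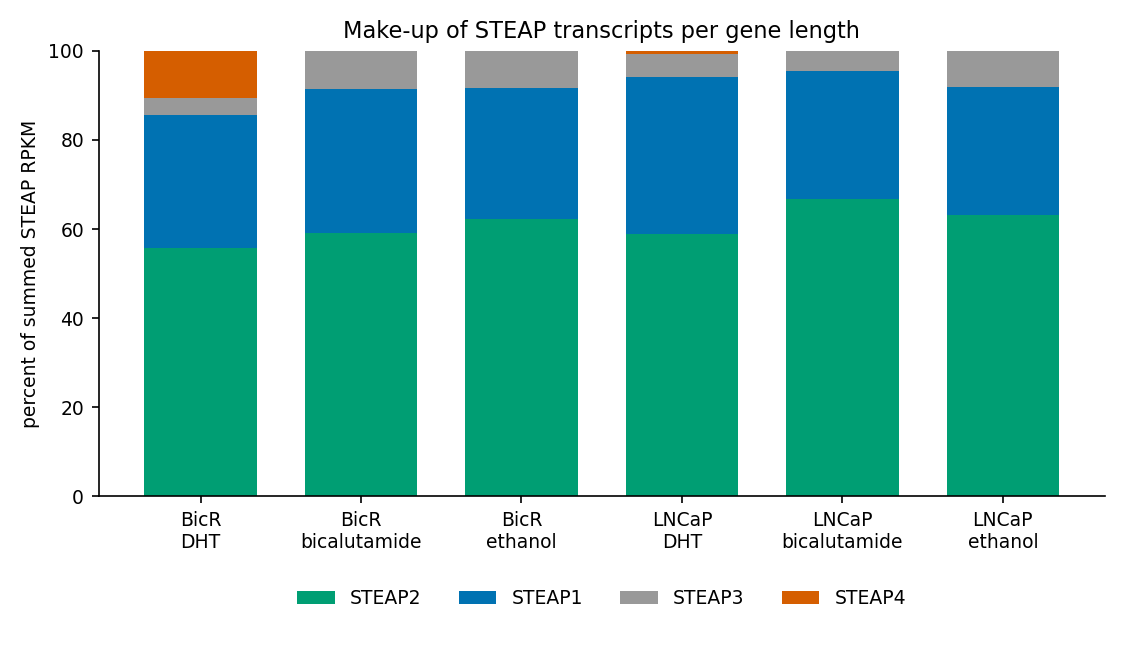
Percent of the summed RPKM of STEAP1, STEAP2, STEAP3 and STEAP4 in each library, stacked from 0 to 100, BicR left and LNCaP right. STEAP2 forms the largest part in every library (55.8% to 66.8%), and STEAP4 is visible in BicR DHT (10.6%) and as a thin band in LNCaP DHT (0.729%).

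The genes whose profiles were most like a member were found by the distance between log2(CPM + 1) profiles over the 6 libraries after each gene's mean was subtracted. For STEAP4 they were CHRNA2, a nicotinic receptor subunit (distance 1.72), TRIM49L (2.50), CENPN, a centromere protein (2.63), TTN, the titin gene (2.92), and FKBP5, a co-chaperone of steroid receptors (2.94). Even the nearest lay far off in amplitude. CHRNA2 had 104, 2.58 and 2.48 CPM in BicR with DHT, bicalutamide and ethanol, and 9.10, 0.863 and 1.22 CPM in LNCaP. Each of the 5 was highest in BicR DHT and next in LNCaP DHT, as STEAP4 was. The genes were chosen by their likeness over these same libraries, so this shared order follows from the choice. TTN had 828 counts in BicR DHT, but only 26 in LNCaP DHT beside 12 in LNCaP bicalutamide.

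**Figure D4:**
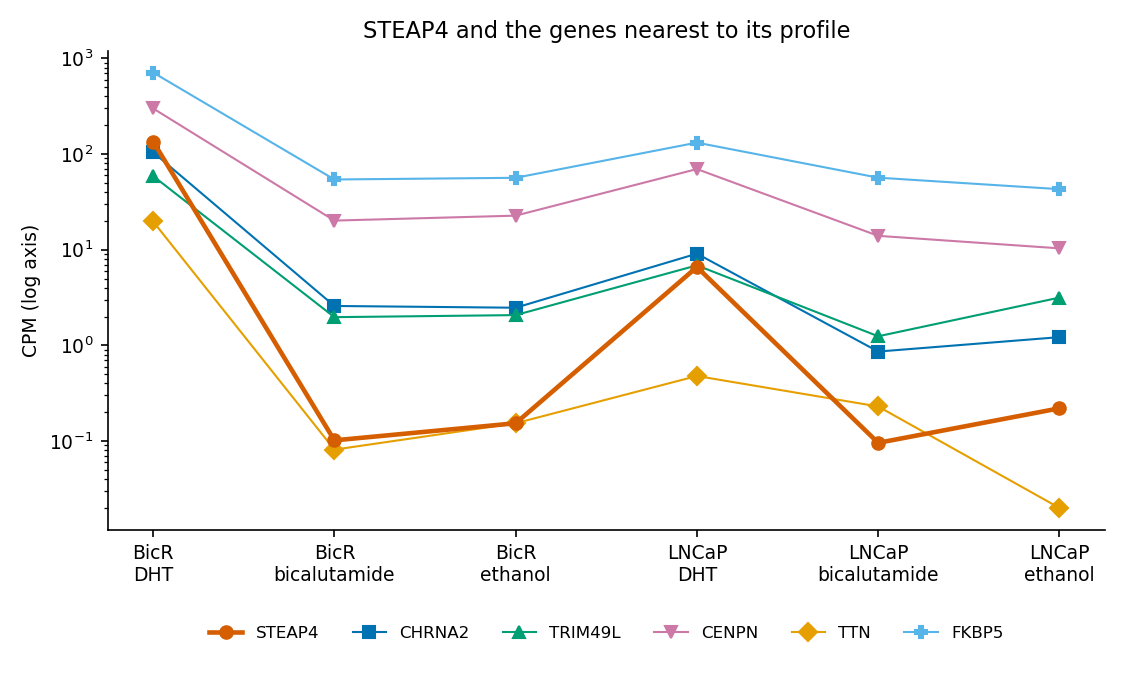
CPM (log axis) of STEAP4 and the 5 genes nearest to its profile in the 6 libraries, BicR left and LNCaP right; lines join the points of 1 gene as a guide. All 6 genes are highest in BicR DHT and next in LNCaP DHT, which follows from choosing the 5 by likeness to STEAP4. STEAP4 spans the widest range, 0.0958 to 135 CPM.

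For the constant members the distances were shorter, since their profiles were flatter. STEAP1 was nearest to CNKSR2 (0.175), SLC25A27 (0.198) and GLYATL2 (0.198). STEAP2 was nearest to PDLIM5 (0.192), ALPK3 (0.226) and GCNT2 (0.233). STEAP3 was nearest to BTN3A2 (0.148), FAM46A (0.167, with 12 to 39 counts per library) and APOL2 (0.169). PDLIM5 shared with STEAP2 its highest levels in BicR DHT (69.7 CPM) and LNCaP bicalutamide (65.7 CPM), beside 45.3 to 54.9 CPM in the other 4 libraries.

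Few genes of any kind passed over both lines with DHT, so the counts of 0 below are near the background of 0.158% higher and 0.0072% lower against ethanol, and 0.166% and 0% against bicalutamide. At an unadjusted p under 0.05, 381 of 13885 genes were at a higher level against ethanol and 483 against bicalutamide. Of 37 genes of iron uptake, storage and export, 30 were tested and edgeR passed 0 with DHT against either (1 with a higher level had an unadjusted p under 0.05 in each), and DESeq2 passed 0. Their median log2 estimate with DHT was 0.00130 against bicalutamide and -0.03 against ethanol, beside 0.00169 and 0.01 over all genes. SLC25A37, which encodes the mitochondrial iron importer mitoferrin, had 64.4 CPM with DHT and 36.7 with ethanol in BicR, and 43.7 and 31.1 in LNCaP (estimate 0.65, SE 0.19, adjusted p = 0.526); its estimate against bicalutamide was 0.66 (adjusted p = 0.489). SLC22A17, the lipocalin receptor gene, stood at 0.17 against bicalutamide (adjusted p = 0.903) and -0.53 against ethanol (adjusted p = 1.00). HMOX1, which encodes haem oxygenase, stood at -0.00414 against bicalutamide (adjusted p = 0.998) and -0.42 against ethanol (adjusted p = 0.914).

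Of 23 copper genes 18 were tested, and 0 passed with DHT by edgeR or DESeq2 against either. At an unadjusted p under 0.05 edgeR had 2 at a higher level against bicalutamide and 0 against ethanol, with medians of 0.26 and -0.01. Within LNCaP, 3 of 18 were at least 2-fold higher with DHT against bicalutamide, beside 1.58% of all genes, and 3 of 18 were at least 2-fold lower with bicalutamide against ethanol, beside 1.52%. The list's median difference was 0.49 in the first of these and -0.55 in the second, beside -0.00674 and 0.01 over all genes. Both contrasts share the LNCaP bicalutamide library. With DHT against ethanol in LNCaP 0 of 18 passed 2-fold, with a median of -0.02. In BicR 0 of 18 passed 2-fold with DHT against bicalutamide, with a median of 0.05. The 3 higher with DHT against bicalutamide in LNCaP were named after their values were seen. They were the metallothionein genes MT2A and MT1F and the extracellular superoxide dismutase gene SOD3. MT2A had 153 CPM with DHT, 51.9 with bicalutamide and 158 with ethanol in LNCaP, so that its bicalutamide library was the low one, and 57.9, 52.2 and 48.5 CPM in BicR. COX17, a copper chaperone of cytochrome oxidase, stood at 0.65 against bicalutamide (adjusted p = 0.631) and 0.49 against ethanol (adjusted p = 0.928). The metallothionein gene MT1G stood at 0.38 and -0.31 and the copper pump gene ATP7B at -0.22 and -0.21, against bicalutamide and ethanol (adjusted p = 0.796 or more). Of 14 other metalloreductase and NADPH oxidase genes 7 were tested and 0 passed with DHT against bicalutamide or ethanol by edgeR or DESeq2, with a median of -0.08 in each edgeR fit. NOX5, a superoxide-forming oxidase gene, stood at 1.23 against bicalutamide (adjusted p = 0.538) and 0.94 against ethanol (adjusted p = 0.794). CYBASC3 stood at -0.28 and -0.22 and DUOX2 at -0.08 and -0.47, against bicalutamide and ethanol.

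Between the lines 7 iron genes differed by edgeR, 3 of 30 higher in BicR and 4 lower, where 1.58% and 2.84% of all genes were. The zinc and iron importer gene SLC39A8 was higher by 1.66 (SE 0.22, adjusted p = 0.00582), as were the ferroxidase genes CP by 2.46 (SE 0.35, adjusted p = 0.00899) and HEPH by 1.23 (SE 0.21, adjusted p = 0.0191). LCN2, which encodes a siderophore-binding lipocalin, was at -1.31 (SE 0.23, adjusted p = 0.0219), its receptor gene SLC22A17 at -1.06 (SE 0.24, adjusted p = 0.0449), HMOX1 at -0.92 (SE 0.16, adjusted p = 0.0219) and TMPRSS6, a protease of the hepcidin pathway, at -0.95 (SE 0.21, adjusted p = 0.0450). Without either bicalutamide library 0 iron genes passed, as did 0 of all genes. DESeq2 passed 3 as higher and 6 as lower, beside 557 and 933 of 13885 over all genes. CP ran from 13.6 to 21.1 CPM in BicR, against 1.62 to 4.66 CPM in LNCaP. In the copper, other reductase and neighbour lists no tested gene passed between the lines by edgeR.

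Among neighbouring genes the edgeR counts with DHT over both lines were also near the background of 0.158% and 0.166%. On chromosome 7, 14 of 19 listed neighbours were tested and 0 passed against bicalutamide or ethanol in edgeR or DESeq2, with edgeR medians of 0.06 and 0.18. At an unadjusted p under 0.05 edgeR had 2 of them at a higher and 1 at a lower level in each contrast. SRI, the sorcin gene beside STEAP4, had 18.6, 17.5 and 20.9 CPM in BicR and 21.1, 19.3 and 22.9 CPM in LNCaP with DHT, bicalutamide and ethanol, and ZNF804B on its other side had 0 counts in every library. CROT, a peroxisomal carnitine transferase gene, stood at 0.67 against bicalutamide (adjusted p = 0.638) and 0.83 against ethanol (adjusted p = 0.563). Within BicR 1 of these 14 neighbours was at least 2-fold higher with DHT against ethanol, beside 1.45% of all genes. This was CROT, at 27.6 CPM with DHT and 13.1 with ethanol. Against bicalutamide in BicR, and against either in LNCaP, 0 of 14 passed 2-fold. TP53TG1 stood at 0.73 and 0.59 and RUNDC3B at -0.54 and -1.19, against bicalutamide and ethanol (adjusted p = 0.405 or more).

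Around STEAP3, 6 of 10 listed genes were tested and 0 passed with DHT against bicalutamide or ethanol in edgeR (1 with a higher level had an unadjusted p under 0.05 in each). DESeq2 passed 1 as higher in each, beside 89 and 75 of 13885 over all genes. DBI, which encodes an acyl-CoA-binding protein, had 232, 51.1 and 58.2 CPM in BicR and 68.2, 46.5 and 51.0 CPM in LNCaP with DHT, bicalutamide and ethanol (edgeR estimate 1.44, SE 0.37, adjusted p = 0.418 against bicalutamide, and 1.28, SE 0.37, adjusted p = 0.556 against ethanol). Within BicR 1 of these 6, DBI, was at least 2-fold higher with DHT, beside 1.45% of all genes against ethanol and 1.43% against bicalutamide. Within LNCaP 0 of 6 passed 2-fold with DHT against either. C2orf76, the coding gene next to STEAP3, stood at 0.58 and 0.72 and PTPN4 at -0.41 and -0.30, against bicalutamide and ethanol (adjusted p = 0.738 or more).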

How the data were processed

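Per the file headers, the authors deposited unnormalized counts for each symbol and their own RPKM values. The libraries were total RNA sequenced on the SOLiD 3 Plus system, per the labels' protocols, and the submitters' processing notes name hg19. The aligner, counter, annotation and use of strand were not given in the sources used here. The RPKM scale depends on the authors' gene models. Columns left unused numbered 0.

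The filter, a mean of 20 counts or more, kept 13885 of 21512 genes; all 4 STEAP genes passed. Library sizes were scaled by TMM. The additive model (line plus treatment) left 2 residual degrees of freedom and was fitted in edgeR 4.0.16 (R 4.3.3) with a threshold of 0.05. It was also run on simulated counts with equal changes in both lines, which cannot bear on responses that differ between lines. Nothing says that the libraries came from separate cultures, so p-values reflect spread among these libraries alone. Intervals of 95% on ratios are exact, given the sum of both counts (scipy 1.17.1). DESeq2 1.42.0, limma 3.58.1 on log2(RPKM + 1), other scalings, pseudocounts of 0.1 and 5, no filter, no line or treatment term and leaving out each library were alternatives. The quotients of 2 ratios carry intervals on the log scale. The lists hold iron and copper handling, other reductases and neighbours. For each, members past the threshold and the 3 with the largest mean DHT difference were named, with the 5 (STEAP4) or 3 (others) nearest profiles. The members and lists were chosen with earlier results of these data known. Labels give no replicate numbers. Values of 1 further gene are not reported here.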

Additional observations from a re-analysis of the deposited data

Results flagged for a closer look

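STEAP2 is listed because its ratios to bicalutamide ran in opposite directions in the 2 lines, each with a counting interval clear of 1; the difference between the lines was not tested. DHT against bicalutamide gave 1.65 in BicR and 0.752 in LNCaP. Bicalutamide against ethanol gave 0.931 in BicR and 1.43 in LNCaP. These contrasts share the LNCaP bicalutamide library, which had 1135 CPM.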

How the results depend on the processing

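The rise of STEAP4 with DHT kept its direction in every alternative. Against ethanol it passed with DESeq2, its size factors, total counts and no filter, and was 2.64 by limma on log2(RPKM + 1) (adjusted p = 0.487) and 8.55 with no cell line term (adjusted p = 1.00); against bicalutamide these were 2.66 and 9.45. The cause was not tested. Leaving out 1 library gave 4.99 to 9.64 and 5.90 to 10.54, -3.92 to 1.46 for bicalutamide against ethanol, and -0.29 to 3.92 for BicR against LNCaP, which was 3.17 with total counts (adjusted p = 0.0154) and 3.20 with no filter (adjusted p = 0.00810). Within BicR the log2 DHT difference of STEAP4 was 9.06, 4.77 and 4.34 with a pseudocount of 0.1, of 5 and on log2(RPKM + 1), within LNCaP 4.39, 1.15 and 0.93 (below 2-fold), and for BicR against LNCaP under DHT 4.34, 3.60 and 3.40. Its excess over the other members was 8.44 and 4.15 in BicR and 4.29 and 1.05 in LNCaP with these pseudocounts, and its share in BicR DHT was 9.41% by counts.

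Of the results of STEAP1, STEAP2 and STEAP3, which did not pass, leaving out 1 library kept the sign of 5 and turned that of 7. STEAP2 ran from -0.0649 to 0.77 (DHT against ethanol), -0.28 to 0.60 (DHT against bicalutamide), -0.24 to 0.64 (bicalutamide against ethanol) and -0.41 to 0.16 (BicR against LNCaP). STEAP3 ran from -0.40 to 0.0250 (DHT against bicalutamide) and -0.42 to 0.00245 (bicalutamide against ethanol), and STEAP1 from -0.21 to 0.11 (BicR against LNCaP; 0.0300 with total counts). Genes passing with DHT against ethanol numbered 22 higher and 1 lower, 75 and 24 by DESeq2, 57 and 7 with total counts, 66 and 11 with no filter, 15 and 0 by limma, 0 and 0 with no line term, and 0 to 167 higher without 1 library. No paired analysis was possible because the labels carry no replicate numbers; the line term matches libraries of 1 line.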

Other observations

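STEAP1 and STEAP2 were highest, and STEAP3 lowest, in the same 3 libraries, BicR DHT, LNCaP DHT and LNCaP bicalutamide, a split chosen after the values were seen. STEAP1 stood at 112, 94.1 and 90.0 CPM in these, against 64.5 to 69.3 CPM in the other 3. STEAP2 stood at 1142, 853 and 1135 CPM, against 691 to 796 CPM. STEAP3 stood at 48.1, 45.8 and 46.0 CPM, against 60.4 to 62.9 CPM. The RPKM of STEAP1 was 7.72, 6.82 and 6.49 times that of STEAP3 in these libraries, and 3.72, 3.54 and 3.49 times in BicR bicalutamide, BicR ethanol and LNCaP ethanol.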
